A study of Homo sapiens with 24 samples.

Results

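The transcripts of 45 DNA replication genes were followed in J82 and RT-112, a pair of bladder cancer lines. The members were the rows of the deposited count table whose gene symbol equals a name on a list of origin licensing, helicase, polymerase, sliding clamp, chromatin assembly and S-phase nucleotide genes. All 45 names were found among the 35993 gene symbols of the table, and all 45 passed the filter on low counts in each line. J82 and RT-112 are established lines grown from human urothelial carcinomas. For each line there were the parental cells and 3 further lines described by the submitters as newly established: CD44 Low, with low expression of the CD44 receptor, CD44 High, with high expression of it, and CD44v6, with high expression of the CD44v6 form of the receptor. CD44 is a surface receptor for hyaluronan, and v6 marks isoforms that carry a variant exon. Each of the 8 groups had 3 biological replicates, 24 libraries in all. The labels name no further treatment, and how the lines were obtained is not given in the sources used here. Each group is therefore 1 line of cells, and its CD44 level and any other property of that line cannot be told apart.

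DNA is copied once per cell cycle. In G1, the origin recognition complex (ORC), CDC6 and CDT1 load the ring of MCM2 to MCM7 onto origins, and geminin (GMNN) blocks CDT1 afterwards. In S phase, CDC45 and the 4 GINS subunits join the ring to make the active helicase, MCM10 helps to fire it, polymerase alpha and primase start each strand, and polymerases delta and epsilon extend it on the clamp PCNA, which the RFC complex loads. FEN1 and LIG1 finish the lagging strand, RPA covers single-stranded DNA, and CHAF1A and CHAF1B place histones on the new DNA. Many of these genes are known targets of E2F transcription factors, and their transcripts are widely used as signs of cycling cells. In bulk RNA, fewer cells in S phase and less RNA per cell cannot be told apart.

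Total counts ranged from 16752825 to 24419670 per library. Levels are given as CPM, a gene's count relative to its library's total, scaled by edgeR's trimmed mean of M values (TMM) over all 24 libraries. A gene is said to rise or fall where edgeR's quasi-likelihood test gave a Benjamini-Hochberg adjusted p under 0.05 over all genes of the fit, and differences are log2 fold changes. CD44 was lowest in the CD44 Low cells of both lines: its mean was 445 CPM in parental J82, 279 in CD44 Low, 727 in CD44 High and 800 in CD44v6, and 317, 141, 420 and 448 CPM in the same order in RT-112. In RT-112 it was called above CD44 Low in CD44 High and CD44v6 (edgeR, 1.61 and 1.66), but was not called above the parental cells in either (adjusted p = 0.272 and 0.163). Total CD44 does not separate isoforms, so it is no check of the CD44v6 label. As to cell type, KRT5, EPCAM, CDH1 and GATA3 averaged 563, 330, 317 and 38.3 CPM in parental RT-112, but in parental J82 KRT5 was at 0, EPCAM at 1.79, CDH1 at 2.54 and GATA3 at 0.234 CPM, with VIM at 368 CPM. The keratins KRT7, KRT8, KRT18 and KRT19 were nonetheless abundant in parental J82, at means of 1994, 4631, 1734 and 379 CPM, so J82 held these keratins but KRT5, EPCAM, CDH1 and GATA3 only at 0 or far below their RT-112 means. Leukocyte markers summed to at most 0.729 CPM in any library.

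To show what these promoters look like, the 250 bases before the RefSeq start of 2 members that moved in opposite directions in both lines are given here. GINS1 lies on the plus strand of chromosome 20 (chr20:25407423-25407672, GRCh38.p14) and MCM6 on the minus strand of chromosome 2 (chr2:135876444-135876693, GRCh38.p14). Capitals mark matches to an E2F motif, the CCAAT box and the cell-cycle homology region (CHR), each searched on both strands. An E2F match was TTTCCCG or else TTTCGCG or else TTTGCCG or else TTTGGCG. The CCAAT box was CCAAT itself, and a CHR match was TTTGAA or else TTCGAA. Matches to the different motifs may overlap, as do matches to 1 motif on opposite strands.
GINS1: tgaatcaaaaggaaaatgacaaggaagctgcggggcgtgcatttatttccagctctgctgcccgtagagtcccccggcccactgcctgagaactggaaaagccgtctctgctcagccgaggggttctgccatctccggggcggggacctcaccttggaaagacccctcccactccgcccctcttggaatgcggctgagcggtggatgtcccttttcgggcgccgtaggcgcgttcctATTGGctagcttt
MCM6: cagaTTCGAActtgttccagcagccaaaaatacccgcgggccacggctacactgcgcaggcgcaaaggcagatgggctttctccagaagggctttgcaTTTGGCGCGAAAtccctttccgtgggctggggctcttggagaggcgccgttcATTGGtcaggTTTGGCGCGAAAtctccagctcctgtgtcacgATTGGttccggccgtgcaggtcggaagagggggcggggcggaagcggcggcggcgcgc
The MCM6 stretch holds the run TTTGGCGCGAAA 2 times, in which TTTGGCG overlaps a TTTCGCG match of the other strand, beside 2 CCAAT boxes read from the other strand and 1 CHR. The GINS1 stretch holds 1 CCAAT box and none of the E2F letters, although the whole window searched, which runs from 250 bases before the start to 50 after it, does hold an E2F match.

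The RefSeq promoter table held such a window of 300 bases for 39 of the 45 members. Some genes, TK1 among them, had multiple windows, and a gene counted where any of them matched. An E2F match stood in 25 of the 39 (64.1%), against 2832 of 27305 genes (10.4%). The 27305 are all genes with a promoter entry, not only the genes tested here. CCAAT stood in 23 of 39 members (59.0%), against 39.7% of genes. A CHR match stood in 2 of 39 (5.13%), against 19.5% of genes. Of the 5 members that moved the same way in both lines (below), GINS1, POLA2 and MCM6 held E2F letters in such a window and FEN1 and TK1 did not. A match is a description of the letters, not a site of binding.

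The members differed widely in level. In each library they summed to between 4749 and 6657 CPM. In parental J82, for example, MCM2 averaged 1197 CPM and CDT1 22.0 CPM. Per kilobase of exon (GENCODE 29, all annotated exons of a gene joined), MCM2 was the highest member in parental J82 at 244 ± 3.32 CPM per kb (SD, n = 3), followed by PCNA at 131 ± 10.5 and MCM7 at 100.1 ± 3.95. In parental RT-112, PCNA led at 195 ± 13.5 CPM per kb, followed by MCM3 at 125 ± 12.2 and MCM4 at 87.6 ± 3.52. The lowest members per kilobase were POLE2 in J82, at 3.71 ± 0.408, and GINS4 in RT-112, at 3.51 ± 0.517.

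The comparison of CD44 High with CD44 Low asks what differs between derived lines labelled with high and with low CD44. In both lines GINS1, POLA2, FEN1 and TK1 were higher in CD44 High cells and MCM6 was lower. In J82, 10 of 45 members were called (22.2%), 7 higher and 3 lower, where 15.7% of all 15951 genes tested were called, 8.83% higher and 6.90% lower. In RT-112, 11 of 45 were called (24.4%), 10 higher and 1 lower, where 16.0% of all 15645 genes were called, 9.01% higher and 7.02% lower. The median member differed by 0.09 in J82, with 27 of 45 above 0, and by 0.17 in RT-112, with 36 of 45 above 0, while the median of all genes lay within 0.02 of 0. The 5 members that were called in each line in the same direction are 11.1% of the members, where 390 of 14237 genes tested in both lines (2.74%) were, and no member was called with opposite signs.

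GINS1, a subunit of the GINS ring of the active helicase, was the 1 of these 5 whose call held in all 12 alternative fits in each line. In J82 it stood at 66.0, 67.6 and 76.1 CPM in the CD44 Low libraries and at 105, 109 and 99.3 CPM in the CD44 High libraries. In RT-112 the CD44 Low libraries held 103, 96.6 and 109.7 CPM and the CD44 High libraries 181, 153 and 151 CPM. Every CD44 High library stood above every CD44 Low library of its line. In J82 the log2 fold change was 0.59 (SE 0.12, adjusted p = 0.00528). RT-112 gave 0.68 (SE 0.10, adjusted p = 0.00133).

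POLA2 is the accessory subunit of polymerase alpha, which starts each new strand. It stood at 61.5, 66.8 and 57.7 CPM in J82 CD44 Low and at 76.7, 79.5 and 71.0 CPM in J82 CD44 High. The RT-112 libraries held 35.9, 34.2 and 32.9 CPM in CD44 Low and 52.6, 52.0 and 43.9 CPM in CD44 High. The groups did not overlap in either line, and POLA2 rose in J82 by 0.29 (SE 0.09, adjusted p = 0.0469) and in RT-112 by 0.56 (SE 0.09, adjusted p = 0.00165). The J82 call was lost without CD44 Low replicate 1 (adjusted p = 0.113) or 3 (0.132) and without CD44 High replicate 1 (0.122) or 2 (0.148), whereas the RT-112 call held in every alternative fit. By GENCODE 29, 35.1% of the exon bases of POLA2 are shared with AP000944.2 on the same strand, so its counts may include reads of that transcript.

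FEN1, the nuclease that trims the flaps of Okazaki fragments, stood at 168, 178 and 176 CPM in J82 CD44 Low and at 232, 253 and 207 CPM in J82 CD44 High. In RT-112 it stood at 155, 133 and 115 CPM in CD44 Low and at 167, 169 and 162 CPM in CD44 High. Each CD44 High library was again above each CD44 Low library, although the RT-112 CD44 Low libraries were spread widely. FEN1 rose in J82 by 0.41 (SE 0.09, adjusted p = 0.00645), and its rise in RT-112 was 0.34 (SE 0.10, adjusted p = 0.0299). The RT-112 call was lost without CD44 Low replicate 2 (adjusted p = 0.0887) or 3 (0.0863) or CD44 High replicate 1 (0.091).

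TK1 is the thymidine kinase that salvages thymidine for DNA synthesis. Its levels were 49.8, 54.5 and 64.1 CPM in J82 CD44 Low and 77.8, 73.5 and 70.2 CPM in J82 CD44 High. In RT-112 they were 83.2, 92.4 and 73.7 CPM in CD44 Low and 118, 136 and 90.5 CPM in CD44 High. The groups were apart in J82, whereas in RT-112 CD44 High replicate 3 fell below CD44 Low replicate 2. The differences were 0.40 (SE 0.10, adjusted p = 0.0153) and 0.50 (SE 0.12, adjusted p = 0.0171). Leaving out a library ended the J82 call for CD44 Low replicates 1 (0.0684) and 2 (0.0541) and CD44 High replicate 1 (0.0661), and the RT-112 call for CD44 Low replicates 1 (0.0592) and 3 (0.0566) and CD44 High replicates 1 (0.0756) and 2 (0.0613), all as adjusted p of edgeR.

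MCM6, a subunit of the MCM ring, moved the other way. It stood at 114, 134 and 102 CPM in J82 CD44 Low against 73.5, 92.6 and 63.8 CPM in J82 CD44 High, and at 66.8, 68.0 and 53.7 CPM in RT-112 CD44 Low against 45.6, 53.0 and 33.1 CPM in RT-112 CD44 High. The groups did not overlap in either line, and the J82 difference was -0.60 (SE 0.18, adjusted p = 0.0355). The RT-112 difference was -0.49 (SE 0.15, adjusted p = 0.0469). Both calls sit near the threshold: 4 of the 6 fits that leave out 1 library lose it in J82 (without CD44 Low replicate 1 or 2 or CD44 High replicate 1 or 3, adjusted p from 0.085 to 0.123) and 4 of 6 in RT-112 (without CD44 Low replicate 1 or 2 or CD44 High replicate 1 or 3, adjusted p from 0.0944 to 0.143). The other 5 subunits of the ring did not follow MCM6 in both lines: MCM3 fell by 0.35 in J82 (adjusted p = 0.00997) but was at 0.17 without a call in RT-112, and MCM2, MCM4, MCM5 and MCM7 were called by edgeR in neither, with log2 fold changes from -0.11 to 0.30. DESeq2 called MCM2 in J82 (0.20, adjusted p = 0.0192).

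**Figure D1:**
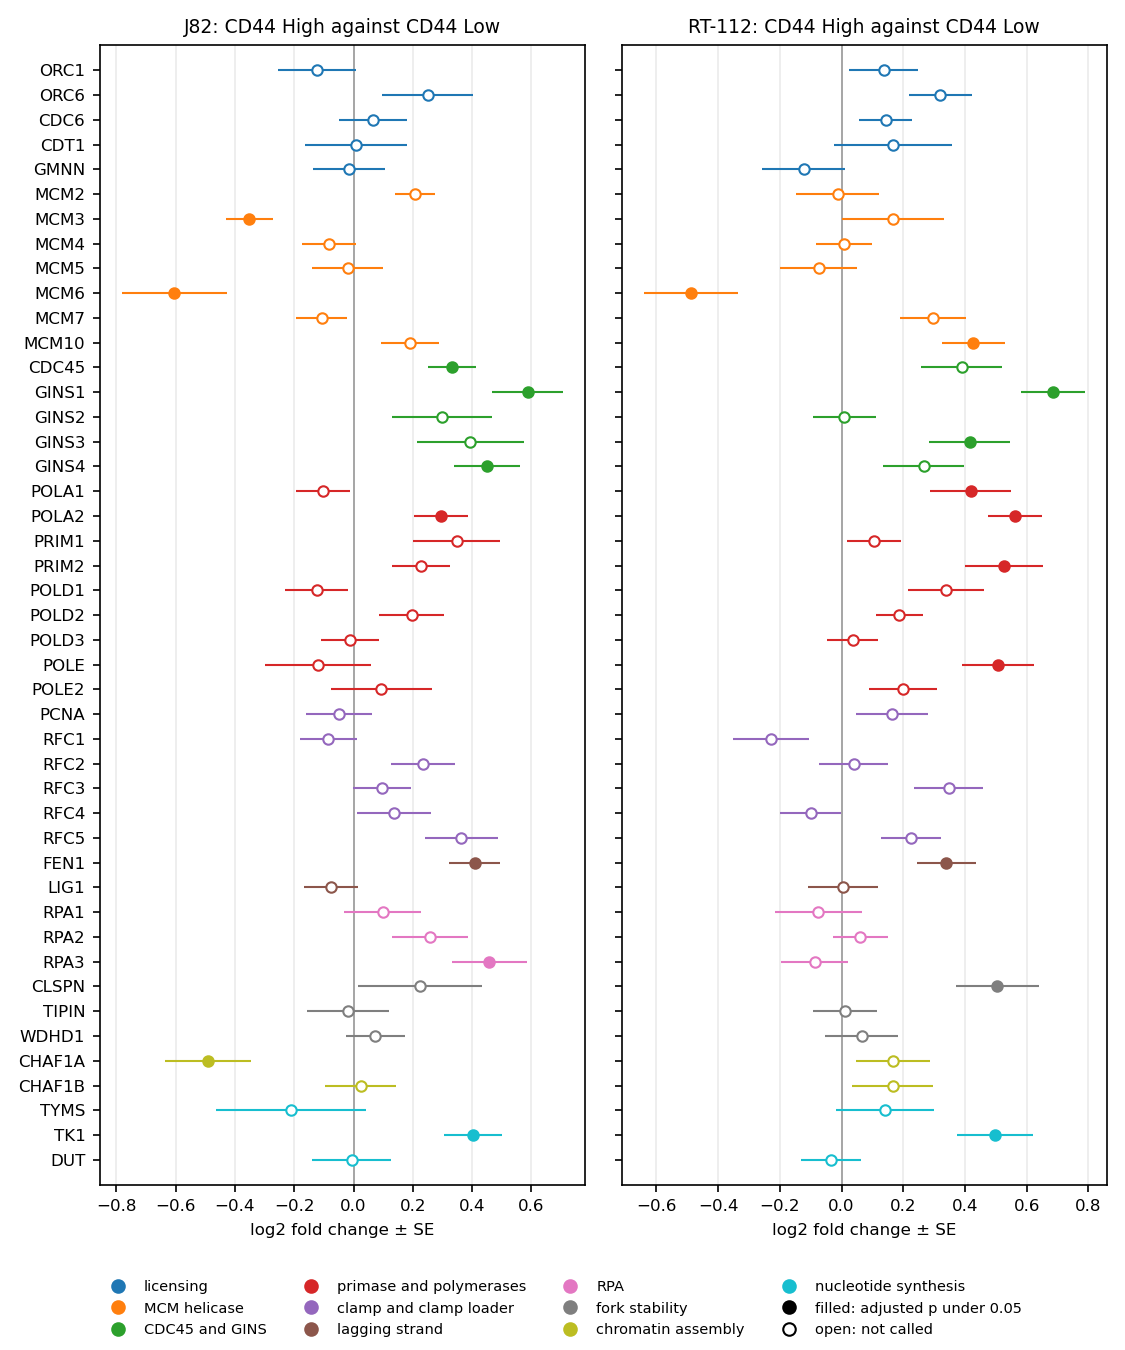
Log2 fold change of each of the 45 members in CD44 High against CD44 Low cells (x axis) with its standard error, for J82 (left) and RT-112 (right), 3 libraries a group. Colours give the role and filled points are called at an adjusted p under 0.05. GINS1 lies furthest to the right among the called points in both panels (0.59 and 0.68) and MCM6 furthest to the left (-0.60 and -0.49).

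The members were also read by role. None of the 5 licensing genes (ORC1, ORC6, CDC6, CDT1 and GMNN) was called in CD44 High against CD44 Low in either line by edgeR, with log2 fold changes from -0.12 to 0.25 in J82 and from -0.12 to 0.32 in RT-112. At an unadjusted p under 0.05 there was 1, ORC6 in RT-112 (0.32, adjusted p = 0.0521), which DESeq2 called. Over all roles, 33.3% of members in J82 and 40.0% in RT-112 had such an unadjusted p, against 30.3% and 30.9% of genes. None of the 6 clamp and clamp loader genes was called by edgeR either, with values from -0.08 to 0.36 in J82 and from -0.23 to 0.35 in RT-112. RFC5 in both lines and RFC3 in RT-112 had an unadjusted p under 0.05, and DESeq2 called RFC5 in J82 and RFC3 in RT-112. A p that misses the threshold does not show that these genes did not change, and the difference between roles was not tested.

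Of CDC45 and the 4 GINS genes, 3 of 5 were called in J82, all higher, where 8.83% of all genes were called higher. There CDC45 rose by 0.33 (adjusted p = 0.0148) and GINS4 by 0.45 (adjusted p = 0.0161) beside GINS1. CDC45 stood at 43.6, 51.0 and 46.4 CPM in J82 CD44 Low and at 60.6, 59.4 and 56.5 CPM in CD44 High, with no overlap. In RT-112, where 9.01% of all genes were called higher, GINS3 rose by 0.41 (adjusted p = 0.0472) beside GINS1. CDC45 was at 0.39 there without a call by edgeR, although DESeq2 called it (adjusted p = 0.0409). GINS2 was called by edgeR in neither line, at 0.30 in J82 and 0.01 in RT-112.

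Of the primase and polymerase genes, 4 of 9 rose in RT-112 and 1 of 9 in J82, where 9.01% and 8.83% of all genes were called higher. In the test of the difference between lines edgeR called none of them, POLA1, POLD1 and POLE had an unadjusted p under 0.05, and DESeq2 called POLA1. Over all roles, 15.6% of members had such an unadjusted p in that test, against 24.7% of genes. In RT-112, POLA1, the catalytic subunit of polymerase alpha, rose by 0.42 (adjusted p = 0.046), PRIM2, a primase subunit, by 0.53 (adjusted p = 0.0142) and POLE, the catalytic subunit of polymerase epsilon, by 0.51 (adjusted p = 0.0118). PRIM2 stood at 32.2, 33.0 and 31.8 CPM in RT-112 CD44 Low and at 49.0, 50.1 and 37.7 CPM in CD44 High, with no overlap. For POLA1 the groups overlapped, at 80.6, 68.6 and 73.3 CPM in CD44 Low against 115, 98.5 and 77.4 CPM in CD44 High. CLSPN, the claspin adaptor of the replication checkpoint, rose by 0.51 (adjusted p = 0.0236) and MCM10 by 0.43 (adjusted p = 0.0146) in RT-112.

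The chromatin assembly subunit CHAF1A fell in J82 by 0.49 (SE 0.15, adjusted p = 0.0373). Its levels were 126, 117 and 159 CPM in J82 CD44 Low and 80.8, 87.6 and 117 CPM in CD44 High. In RT-112 it was at 0.17 without a call, from 151 to 161 CPM in CD44 Low and from 132 to 211 CPM in CD44 High. RPA3, the small subunit of the single-strand binding protein RPA, rose by 0.46 (adjusted p = 0.0278) in J82 and was at -0.09 in RT-112. It was the 1 member that edgeR called in the test of the difference between lines in this comparison, where 10.7% of genes were called, and 6 of the 12 fits that leave out 1 library lost that call. DESeq2 called RPA3, POLA1 (-0.47, adjusted p = 0.0362) and CHAF1A (-0.61, adjusted p = 0.0318) in the same test.

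How many members were called depended on single libraries. In J82 the 10 members became 3 without CD44 Low replicate 1, 4 without CD44 High replicate 1 and 5 without CD44 High replicate 2. In RT-112 the 11 became 3 without CD44 High replicate 1, 4 without CD44 Low replicate 1 and 5 without CD44 Low replicate 2, and 15 without CD44 High replicate 3. That last library held the lowest sum of members in its group, 4749 CPM against 5809 and 6186, and its members lay at a median of -0.15 on the log2 scale from the line average, against 0.08 and 0.18 for the others. The same library had the highest G2 and mitosis deviation of all 24 libraries, 0.40.

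**Figure D2:**
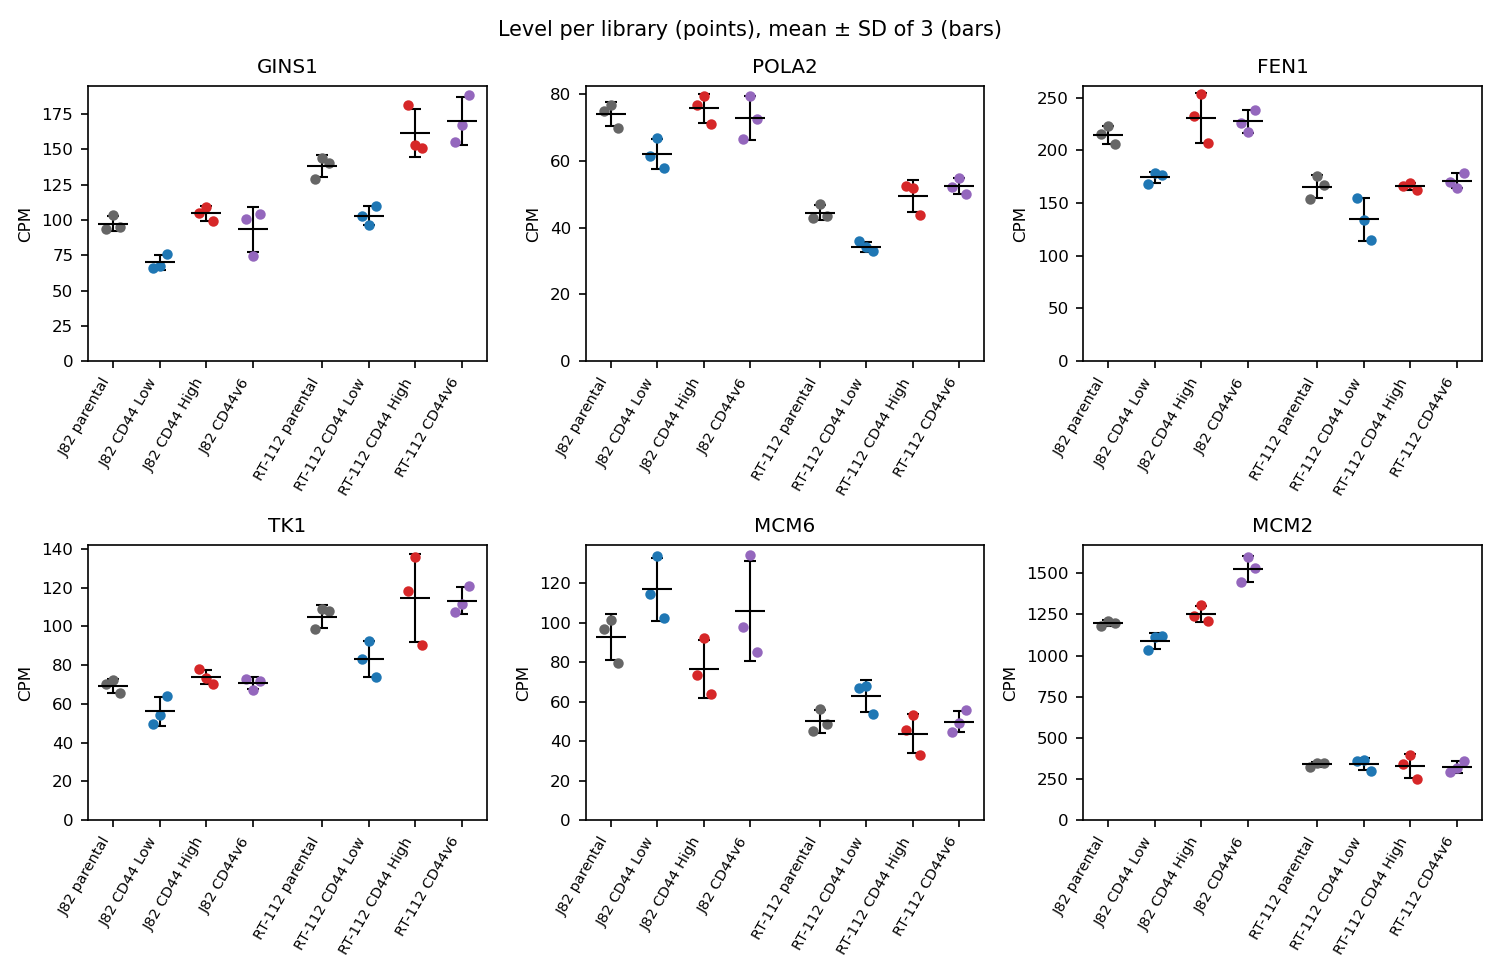
Scaled CPM (y axis, from 0) of GINS1, POLA2, FEN1, TK1, MCM6 and MCM2 in each library of the 8 groups, as points, with the mean and SD of 3 replicates as bars. In both lines the CD44 Low group (blue) has the lowest mean for GINS1, POLA2, FEN1 and TK1 and the highest for MCM6, and MCM2 is at 1034 CPM or more in every J82 library and at 398 CPM or less in every RT-112 library.

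CD44v6 cells were compared with the same CD44 Low libraries, so the CD44v6 and CD44 High comparisons share their controls. By edgeR, 7 members rose in J82 and none fell against CD44 Low, where 9.58% of all genes were called and 6.18% were called higher: MCM2, MCM10, CDC45, GINS1, PRIM1, FEN1 and TK1. In RT-112, edgeR called 7 of 45 higher and none lower: MCM10, GINS1, GINS3, POLA2, PRIM2, FEN1 and TK1. Of all RT-112 genes, 16.0% were called and 7.97% were called higher. The share of members called in either direction was thus close to that of all genes. The median member was at 0.21 in J82, with 40 of 45 above 0, and at 0.13 in RT-112, with 34 of 45 above 0. The median of all genes is not set beside these values, so a shift of all genes is not separated. No member was lower at an unadjusted p under 0.05, or by DESeq2, in J82. In RT-112, 2 were lower at an unadjusted p under 0.05 (MCM6 and RFC1), and DESeq2 called RFC1 lower (-0.37, adjusted p = 0.0297). In either direction, 40.0% of members in J82 and 33.3% in RT-112 had such an unadjusted p, against 23.2% and 31.3% of genes. MCM10, GINS1, FEN1 and TK1 were called higher in both lines, 8.89% of members against 1.96% of genes.

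MCM2, a subunit of the MCM ring, had the smallest p of these in J82. It stood at 1034, 1110 and 1120 CPM in CD44 Low and at 1446, 1599 and 1535 CPM in CD44v6, with no overlap, a rise of 0.49 (SE 0.07, adjusted p = 0.000501) that held in all 12 alternative fits. In RT-112 the same groups held 357, 363 and 299 CPM and 292, 315 and 360 CPM and overlapped. The difference between the lines in this comparison was 0.57 (SE 0.16, adjusted p = 0.0383), where 7.52% of genes were called. MCM2 was the 1 member called there, by edgeR and by DESeq2. That call was lost without J82 CD44 Low replicate 2 (adjusted p = 0.0627), RT-112 CD44v6 replicate 1 (0.085) or RT-112 CD44v6 replicate 2 (0.0688). By GENCODE 29, 23.6% of the exon bases of MCM2 overlap AC023593.1 and TPRA1 on the opposite strand, and whether counting used strand is not given in the sources used here.

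PRIM1, the catalytic subunit of primase, had the largest rise among the called members in J82 CD44v6 cells, 0.51 (SE 0.15, adjusted p = 0.0484), at 25.4, 28.8 and 35.2 CPM in CD44 Low and 44.6, 32.8 and 49.0 CPM in CD44v6. The groups overlapped through CD44v6 replicate 2, and the call was lost without CD44 Low replicate 1 (adjusted p = 0.153) or 2 (0.138) or CD44v6 replicate 1 (0.126) or 3 (0.136). Of the exon bases of PRIM1, 16.2% are shared on the same strand with AC117378.1 and NACA (GENCODE 29). Its counts may include reads of those transcripts. In RT-112, GINS1 rose by 0.72 (SE 0.10, adjusted p = 0.00111), from 103, 96.6 and 109.7 CPM in CD44 Low to 155, 167 and 189 CPM in CD44v6. POLA2 rose there by 0.60 (SE 0.09, adjusted p = 0.0012), with 52.2, 54.9 and 50.1 CPM in CD44v6 against at most 35.9 CPM in CD44 Low. Both RT-112 calls held in all 12 alternative fits. The count of 7 in J82 became 3 without CD44 Low replicate 1, 3 without CD44v6 replicate 1 and 4 without CD44v6 replicate 3. In RT-112 it became 3 without CD44 Low replicate 1 or 2 or CD44v6 replicate 2, and 2 without CD44 Low replicate 3 or CD44v6 replicate 3.

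Between CD44v6 and CD44 High cells edgeR called no member, and no gene at all, in either line (0% of genes). In J82, 5 members had an unadjusted p under 0.05, all higher in CD44v6 (MCM2, MCM3, MCM6, POLA1 and CHAF1A), and DESeq2 called MCM2, MCM3 and POLA1. The 5 were 11.1% of the members, where 9.63% of all genes had such a p. The smallest adjusted p of edgeR was 0.344, for MCM2, and the median member was at 0.12 with 36 of 45 above 0. The median of all genes is not given beside it. In RT-112, 2 members had an unadjusted p under 0.05 (CLSPN and WDHD1, both lower in CD44v6), DESeq2 called none, and the median member was at -0.02. The 2 were 4.44% of the members, where 4.25% of all genes had such a p. Without RT-112 CD44 High replicate 2, edgeR called 1 member.

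Few members, and few of all genes, were called against the parental cells. Whether the shares of members and of all genes differ was not tested. In J82 CD44 Low, 2 members fell and none rose, where 5.34% of all genes were called and 3.08% were called lower: CDC45 by 0.39 (SE 0.08, adjusted p = 0.0145) and GINS1 by 0.48 (SE 0.12, adjusted p = 0.0361). CDC45 stood at 59.5, 63.4 and 61.3 CPM in parental J82 against 43.6, 51.0 and 46.4 CPM in CD44 Low, and GINS1 at 93.4, 104 and 95.1 CPM against 66.0, 67.6 and 76.1 CPM, both without overlap. The median member was at -0.18, with 6 of 45 above 0. In RT-112 CD44 Low, 2 members fell, where 3.20% of all genes were called and 1.87% were called lower: GINS1 by 0.45 (SE 0.10, adjusted p = 0.0336) and POLA2 by 0.41 (SE 0.09, adjusted p = 0.0257). GINS1 stood at 129, 144 and 141 CPM in parental RT-112 against 103, 96.6 and 109.7 CPM, and POLA2 at 43.0, 47.0 and 43.5 CPM against 35.9, 34.2 and 32.9 CPM, again without overlap. The median there was -0.12, with 11 of 45 above 0. In neither line is the median of all genes set beside that of the members here, so a shift of all genes is not separated.

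GINS1 was thus the 1 member that fell in the CD44 Low cells of both lines. It makes up 2.22% of the members. Of the 14237 genes that could be compared, 123 (0.864%) moved alike in J82 and RT-112 by the edgeR calls. Whether these shares differ was not tested. The calls of members in CD44 Low against parental cells were fragile to the loss of a library. The GINS1 call was kept only without CD44 Low replicate 3 in each line, and otherwise its adjusted p ran from 0.0908 to 0.155 in J82 and from 0.08 to 0.138 in RT-112. The POLA2 call was also kept only without CD44 Low replicate 3, with adjusted p from 0.0661 to 0.133 otherwise. The CDC45 call was lost without J82 parental replicate 2 (0.0796) or 3 (0.0617) or CD44 Low replicate 1 (0.0589). Leaving out J82 CD44 Low replicate 3 raised the J82 count from 2 to 6. DESeq2 called 7 members in J82 and 5 in RT-112, all lower, including MCM10, GINS1, FEN1 and CLSPN in both lines. The shares of all genes given above are those of edgeR, so they are no background for these DESeq2 counts. No member passed the edgeR test of the difference between lines in this comparison, where 1.06% of genes were called. At an unadjusted p under 0.05 there were 2 (POLE and RPA2), 4.44% of members against 13.8% of genes, and DESeq2 called none.

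Few members, and few of all genes, were called in CD44 High and CD44v6 cells against their parents. In J82 CD44 High, MCM3 fell by 0.42 (SE 0.08, adjusted p = 0.0134) and CHAF1A by 0.77 (SE 0.15, adjusted p = 0.014), 2 of 45 where 2.94% of genes were called. MCM3 stood at 310.2, 333 and 302 CPM in parental J82 and at 227, 241 and 235 CPM in CD44 High, and CHAF1A at 165, 161 and 159 CPM against 80.8, 87.6 and 117 CPM. Neither overlapped. The MCM3 call was lost without J82 parental replicate 1 (0.0667) or 2 (0.0853) or CD44 High replicate 1 (0.0539), and the CHAF1A call without the same parental replicates (0.0716 and 0.0595) or CD44 High replicate 1 (0.0574) or 2 (0.0786), as adjusted p of edgeR.

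In J82 CD44v6, MCM2 rose over the parental 1180, 1213 and 1198 CPM by 0.35 (SE 0.07, adjusted p = 0.0204), 1 of 45 members where 2.60% of genes were called. The CD44v6 libraries, at 1446 to 1599 CPM, all stood above the parental ones, but the call was lost without parental replicate 1 (adjusted p = 0.127), 2 (0.0943) or 3 (0.0797). In RT-112, edgeR called no member against the parental cells in CD44 High (0.511% of genes called) or in CD44v6 (0.614%). At an unadjusted p under 0.05 there were 3 members in CD44 High (ORC6, GINS1 and PRIM2, all higher) and 5 in CD44v6 (ORC6, GINS1 and POLA2 higher, RFC1 and WDHD1 lower). These were 6.67% and 11.1% of the members, where 12.3% and 15.3% of all genes had such a p. DESeq2 called none in CD44 High and ORC6 and WDHD1 in CD44v6. The comparisons with CD44 Low and those with the parental cells share libraries and are not independent of each other.

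The widest differences lay between the 2 lines, since within a line no member differed by more than 0.77 from 1 group to another. Between parental J82 and parental RT-112, 31 of 45 members were called (68.9%), 14 higher and 17 lower in J82, where 62.0% of all 17438 genes were called, 31.0% in each direction. The members' share was close to that of all genes. MCM2 was 1180, 1213 and 1198 CPM in J82 and 323, 344 and 350 CPM in RT-112, a difference of 1.82 (SE 0.12, adjusted p = 1.34e-11). CHAF1B, the middle subunit of the chromatin assembly factor, was the reverse, 21.1, 21.2 and 19.7 CPM in J82 against 84.3, 98.4 and 90.8 CPM in RT-112 (-2.14, SE 0.14, adjusted p = 7.09e-12). Both gaps recurred in all derived lines: MCM2 was at 1034 CPM or more in each J82 library and at 398 CPM or less in each RT-112 library, and CHAF1B at 23.4 CPM or less in J82 and 70.8 CPM or more in RT-112.

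The subunits of 1 complex did not differ between the lines in 1 direction. Of the MCM ring, MCM2, MCM6 (0.89) and MCM7 (0.56) were higher in J82, and MCM3 (-0.53), MCM4 (-0.32) and MCM5 (-0.98) were lower. MCM5 stood at 100.5, 99.3 and 91.9 CPM in J82 and at 184, 201 and 190 CPM in RT-112 (SE 0.13, adjusted p = 1.42e-06). In the GINS ring, GINS4 was higher in J82, at 47.8, 44.3 and 46.0 CPM against 20.1, 16.0 and 21.5 CPM (1.26, SE 0.13, adjusted p = 1.19e-08), whereas GINS1 (-0.50) and GINS2 (-0.42) were lower. RFC3 was higher in J82 (0.83) and RFC1 (-0.32) and RFC4 (-0.36) lower, and RPA1 (1.03) and RPA2 (0.42) were higher with RPA3 (-0.32) lower. Of the nucleotide genes, TYMS, thymidylate synthase, was higher in J82 (adjusted p = 0.000834), and TK1 (-0.60) and DUT, the dUTPase, (-0.64) were lower. The exons of TYMS overlap ENOSF1 and TYMSOS on the opposite strand over 46.6% of their bases, and those of GINS4 overlap 2 genes over 23.6%. The CHAF1B, MCM2, GINS4 and MCM5 calls held in all 10 alternative fits.

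**Figure D3:**
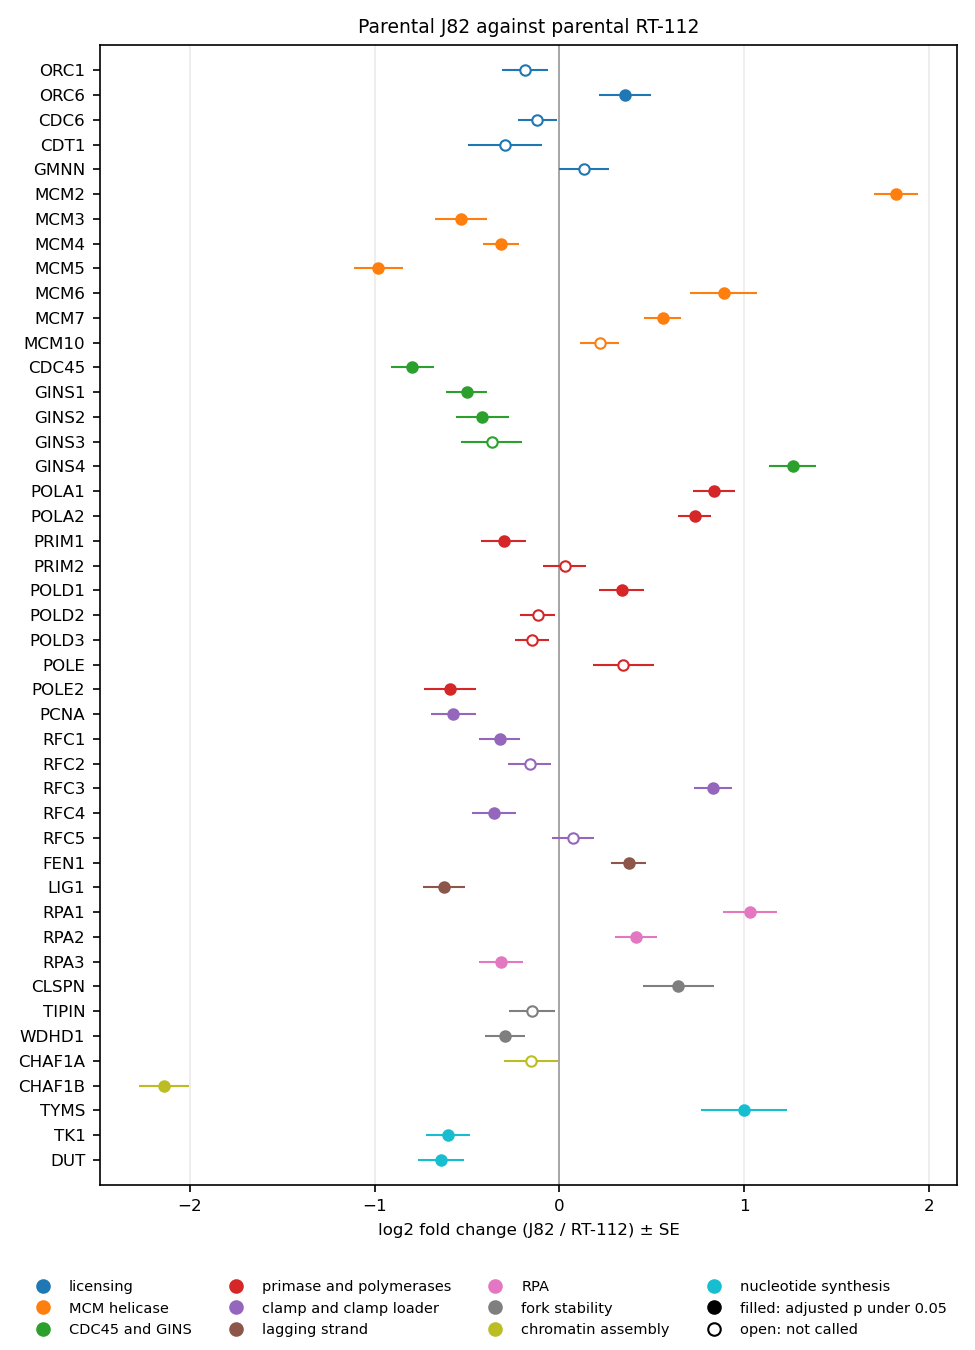
Log2 fold change of the 45 members between parental J82 and parental RT-112 (x axis, above 0 where J82 is higher) with its standard error, 3 libraries each. Filled points are called at an adjusted p under 0.05. MCM2 (1.82) and CHAF1B (-2.14) are at the ends, and the coloured points of the MCM, GINS, RFC and RPA complexes fall on both sides of 0.

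The other genes of the pathway and of the cell cycle, taken from lists, were compared in CD44 High against CD44 Low cells. Of 35 further replication factors, 6 rose and 3 fell in J82 and 7 rose and 1 fell in RT-112. The shares of all genes called were 8.83% higher and 6.90% lower in J82 and 9.01% and 7.02% in RT-112. RRM2 and RRM1, the subunits of ribonucleotide reductase, rose in both lines (0.75 and 0.74 for RRM2, 0.60 and 0.34 for RRM1 in J82 and RT-112), as did MCM8 (0.28 and 0.75). Of 18 E2F and G1/S regulators, 3 rose and 2 fell in J82 and 6 rose and 1 fell in RT-112, with E2F7 (0.64 in each line) and CCND1 (1.60 and 0.32) called in both. Of the CDK inhibitors and cell cycle exit genes, 1 of 10 tested rose and 2 fell in J82, and the 8 tested in RT-112 had a median of 0.03.

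The 20 G2 and mitosis genes had larger median differences than the replication genes. In each line 12 of 20 rose in CD44 High against CD44 Low, with medians of 0.51 in J82 and 0.55 in RT-112, set beside 0.09 and 0.17 for the replication members. Of all genes, 8.83% in J82 and 9.01% in RT-112 were called higher. Called in both lines were 9, led by UBE2C (1.43 and 1.55), AURKB (0.83 and 0.89), CDK1 (1.19 and 0.82) and AURKA (0.75 and 0.87). Against parental cells, 10 of 20 fell in J82 CD44 Low and 8 of 20 in RT-112 CD44 Low, where 3.08% and 1.87% of all genes were called lower. Whether replication and mitosis genes differ from each other was not tested.

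For a view by library, each member was set against its average over the 12 libraries of its line, and the median of the 45 deviations was taken. The CD44 Low libraries lay at -0.26, -0.08 and -0.02 in J82 and at 0.02, -0.06 and -0.21 in RT-112. The CD44v6 libraries lay at 0.07, 0.05 and 0.13 in J82 and at 0.01, 0.01 and 0.15 in RT-112. CD44 High spread from -0.08 to 0.06 in J82 and from -0.15 to 0.18 in RT-112, so CD44 High and CD44 Low libraries overlapped in both lines. For the mitosis genes the CD44 Low libraries lay at -0.22, -0.44 and -0.16 in J82 and at -0.25, -0.51 and -0.27 in RT-112, below every CD44 High library of their line. The J82 CD44v6 libraries lay at -0.08, -0.26 and 0.03, with replicate 2 below CD44 Low replicates 1 and 3. In RT-112 the CD44v6 libraries lay at 0.25, 0.25 and 0.05.

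**Figure D4:**
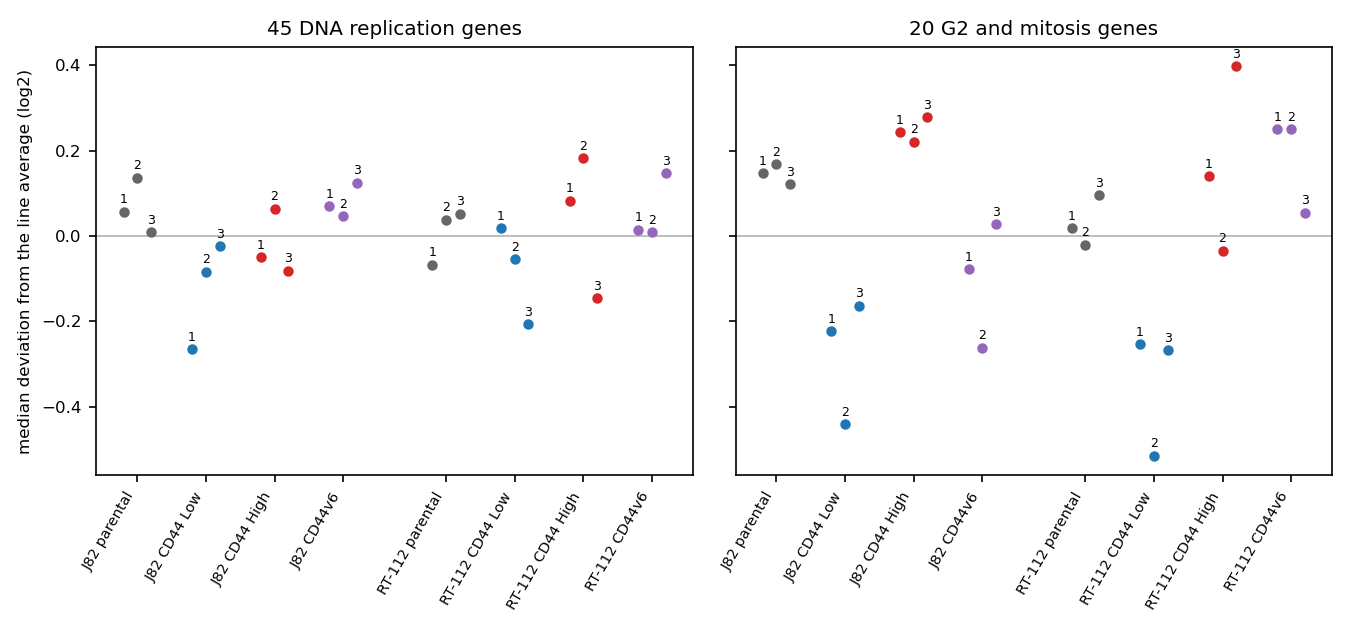
Median deviation of the 45 replication genes (left) and of the 20 G2 and mitosis genes (right) from the average of their line, in log2 units (y axis), for each of the 24 libraries by group, with replicate numbers beside the points. RT-112 CD44 High replicate 3 is the lowest of its group for replication (-0.15) and the highest of all for mitosis (0.40).

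Sums of some cell type markers also differed between groups, but not in the same way in both lines. The 4 fibroblast markers summed to between 76.6 and 128 CPM in J82 CD44 Low, 36.8 and 45.6 in CD44 High, 29.2 and 64.0 in CD44v6, and 45.8 and 55.9 in parental cells. In J82, 2 of the 3 that could be tested fell in CD44 High against CD44 Low, where 6.90% of all genes were called lower. COL1A2 made up most of this sum, with a mean of 83.5 CPM in J82 CD44 Low, and 1 of the 4 markers had no count in any J82 library. In RT-112 these markers summed to at most 4.75 CPM.

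The means of the 4 mesenchymal markers did not all differ in 1 direction. In RT-112 they summed to between 206 and 244 CPM in CD44 Low, 418 and 768 in CD44 High, 525 and 899 in CD44v6 and 307 and 372 in parental cells, nearly all of it FN1, fibronectin, with means of 214, 534, 706 and 321 CPM in that order. VIM averaged 1.52 CPM in RT-112 CD44 Low and 0.810 in CD44 High and ZEB1 1.41 and 0.629. In J82 they summed to between 872 and 1114 CPM in CD44 Low, 1201 and 1382 in CD44 High, 1109 and 1439 in CD44v6 and 991 and 1113 in parental cells. VIM averaged 231 CPM in J82 CD44 Low and 606 in CD44 High, whereas FN1 averaged 422 and 311. The 10 urothelial and epithelial markers summed to between 6450 and 7860 CPM in J82 CD44 Low, 8713 and 10600 in CD44 High, 8780 and 9367 in CD44v6 and 8008 and 9553 in parental cells. In RT-112 the CD44 Low libraries lay above the CD44 High ones instead, between 12453 and 14697 CPM in CD44 Low, 10348 and 11501 in CD44 High, 11658 and 12234 in CD44v6 and 11718 and 12554 in parental cells. The part of these markers in the replication results was not tested.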

How the data were processed

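RNA-seq counts of 24 libraries were analysed. The values are whole-number counts by gene symbol in 1 table that the authors deposited unnormalized; the submitters' processing notes name HISAT2, StringTie and GRCh37, without role, and strand use is not given in the sources used here. Members and lists were chosen with earlier results of these data known. The 45 members may each be named by role, with library values for those called most strongly or in both lines. Each line was fitted on its 12 libraries in edgeR 4.0.16 (R 4.3.3): low counts were removed with filterByExpr, libraries scaled by TMM, group as the only term, quasi-likelihood F-tests, Benjamini-Hochberg over all 15951 (J82) or 15645 (RT-112) genes. Parental J82 against parental RT-112 and the differences between lines used all 24 libraries (17438 genes). Levels were scaled over all 24 libraries, fold changes within each fit. Each SE of edgeR is the absolute log2 fold change divided by the square root of its quasi-likelihood F. Alternatives were DESeq2 1.42.0, median-of-ratios scaling, no filter, a replicate block, other sets of libraries and leaving out each library. Replicates of a group differed by 6.42 to 63.7 times counting noise (chi-square per degree of freedom, 24 pairs), so none was a duplicate. Same-numbered replicates deviated together, with every correlation over 0.1, in 1 of 12 within-line comparisons (J82 CD44v6 against CD44 High, 0.11, 0.11 and 0.25). The edgeR step was tested on simulated data, with planted changes larger than any within-line member difference reported here. That test does not show how well differences of the reported size are detected. Exon overlaps came from GENCODE 29 and promoters from RefSeq (both GRCh38, so coordinates are not those of the counts).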

Additional observations from a re-analysis of the deposited data

Results flagged for a closer look

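There were 2 results that differed between the lines by a test of the difference itself. For RPA3 in CD44 High against CD44 Low, the change in J82 exceeded that in RT-112 by 0.575 on the log2 scale (SE 0.17, edgeR adjusted p = 0.0307), where 10.7% of genes were called and RPA3 was the 1 member edgeR called. RPA3 stood at 17.7, 20.4 and 21.5 CPM in J82 CD44 Low and at 26.8, 31.4 and 23.4 CPM in CD44 High, and at 29.5, 32.9 and 24.3 CPM against 27.9, 25.3 and 26.4 CPM in RT-112. The groups were apart in J82 and overlapped in RT-112. The call was lost without J82 CD44 Low replicate 1 (adjusted p = 0.0765), J82 CD44 High replicate 1 (0.0527) or 2 (0.0874), RT-112 CD44 Low replicate 1 (0.056) or 2 (0.085), or RT-112 CD44 High replicate 2 (0.0618). For MCM2 in CD44v6 against CD44 Low, the change in J82 exceeded that in RT-112 by 0.566.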

How the results depend on the processing

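Counts of members called (45 tested in each comparison) were refitted under each alternative. The shares of all genes given above belong to the main fits and are no background for the counts below. No value changed its sign, and the median-of-ratios scaling left all 16 counts within 1.5 times. Without the low-count filter the count became 4 in J82 CD44v6 against CD44 Low, 1 in RT-112 CD44 Low against parental and 3 in RT-112 CD44v6 against CD44 Low. With DESeq2 it became 7 and 5 in CD44 Low against parental (J82, RT-112), 3 in J82 CD44v6 against CD44 High, 2 in RT-112 CD44v6 against parental and 3 in the difference between lines for CD44 High against CD44 Low. With a replicate block it became 4 and 1 in CD44 Low against parental (J82, RT-112) and 7 for RT-112 CD44 High relative to CD44 Low. It became 2 in the difference between lines for both CD44 High and CD44v6 against CD44 Low. The labels do not say that replicate numbers pair samples. In J82 CD44v6 against CD44 High, where same-numbered replicates deviated together, the block gave 0, as without it. With all 24 libraries in 1 fit it became 1 in J82 CD44 High and 0 in J82 CD44v6 against parental. With only the 6 libraries compared it became 6, 5 and 0 in J82 CD44 Low, CD44 High and CD44v6 against parental, 1 in J82 CD44v6 against CD44 Low, 7 and 1 in RT-112 CD44 Low and CD44v6 against parental, 3 in RT-112 CD44 High and 11 in RT-112 CD44v6 against CD44 Low. The cause was not tested, beyond the fewer samples of the last setting. Leaving out 1 library at a time gave 0 to 6 in J82 CD44 Low, 0 to 2 in CD44 High and 0 to 2 in CD44v6 against parental, 3 to 10 in J82 CD44 High and 3 to 10 in CD44v6 against CD44 Low, 0 to 2 in RT-112 CD44 Low against parental, 3 to 15 in RT-112 CD44 High and 2 to 8 in CD44v6 against CD44 Low, 0 to 1 in RT-112 CD44v6 against CD44 High, 24 to 30 between parental lines, and 0 to 6 and 0 to 5 in the differences between lines for CD44 High and CD44v6 against CD44 Low. Beyond single libraries, calls of named members were lost as follows. In CD44 High against CD44 Low, POLA2 in J82 lost its call under median-of-ratios, no filter and 6 libraries, MCM6 in J82 under no filter, MCM6 in RT-112 under the block, 24 libraries and 6 libraries, FEN1 in RT-112 under no filter, the block and 6 libraries, and TK1 in RT-112 under 6 libraries. PRIM1 in J82 CD44v6 against CD44 Low lost it under no filter and 6 libraries. Against parental cells, CDC45 (J82 CD44 Low) and MCM3 (J82 CD44 High) lost it under 24 libraries, MCM2 (J82 CD44v6) under 24 and 6 libraries, GINS1 (RT-112 CD44 Low) under the block and POLA2 (RT-112 CD44 Low) under no filter. The median SE of a member's log2 fold change was 0.11 to 0.12, and the smallest called difference within a line was 0.29.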
